A study of Mus musculus with 179 samples.

Results

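The 9 genes described here are markers of stratified, squamous epithelia: the keratins Krt4, Krt5, Krt6a, Krt13, Krt14 and Krt17, the cornified-layer genes Sbsn and Sprr1a, and the transcription factor gene Trp63. They were chosen from a list of 32100 gene identifiers by their known roles and by UMI levels measured in these same cells, so their levels are given as a description with no test. The samples were single cells from the exocrine pancreas of wild-type C57BL6 mice, each named Acinar with a number. All formed 1 group: acinar tissue freed by digestion and a density gradient, then cultured for 9 days as three-dimensional organoids in Matrigel, with no allele or agent added that differs between cells. RNA was read with Smart-seq3, a plate-based single-cell method that counts molecules by unique molecular identifiers (UMIs). No animal, culture or clone was named for a cell, and cells are not replicates, so no p-value is given and every interval covers counting error only.

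Stratified epithelia such as epidermis, oesophagus and forestomach are renewed from a basal layer. Basal cells make the paired keratins 5 and 14 under the control of p63, the product of Trp63. Cells that leave the basal layer change to other keratins: keratins 4 and 13 are the pair of the suprabasal oesophagus and oral lining, and keratins 6 and 17 mark wounded or activated epithelium. At the surface, small proline-rich proteins such as Sprr1a are cross-linked into the cornified envelope together with involucrin and loricrin, and suprabasin, the product of Sbsn, is made in the upper layers. The pancreas has a simple epithelium, whose duct cells normally carry keratins 7, 8, 18 and 19.

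The cells gave a median of 165267 UMIs (range 3258 to 329522), so 1 UMI in a cell of median depth stood for 6.05 CPM, the UMIs of a gene scaled to a total of 1000000 per cell. A cell was called on for a gene at 100 CPM or more with at least 5 UMIs. Correlations were computed over the cells with at least 40000 UMIs, which leaves out 18 shallower cells, and shares of cells are also given after thinning each of the deeper cells to 40000 UMIs. The label names the source tissue and not the state of the cells after culture. A list of 13 acinar genes, of enzymes, other granule proteins and transcription factors, had a median of 130.8 CPM per cell. By contrast, 12 genes of simple duct epithelium had a median of 17466 CPM. In 6 cells the levels of 9 fibroblast genes other than Fn1 were above 1000 CPM, and these 6 fibroblast-rich cells serve below as the nearest to a background. They were poor in keratin but not without it: Krt8 was at 244 to 373 CPM in 5 of them and at 1879 CPM in Acinar188, against a median of 5313 CPM over all cells.

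Of the 9 genes, Sprr1a was widespread, 4 were strong in a few cells, and 4 were almost undetected. Together they held 20660 UMIs, or 742 CPM of all UMIs (exact 95% Poisson interval 732 to 753), and 93.2% of these UMIs were from Sprr1a. The other 8 genes together reached 50.1 CPM (47.5 to 52.8). At least 1 gene was on in 59.8% of cells (exact 95% binomial interval 52.2 to 67.02%), almost always Sprr1a alone. No gene was on in 72 cells, 1 in 99 cells, 2 in 6 cells, 3 in the cell Acinar89 and 4 in the cell Acinar65. For comparison, 31.1% of all genes with a UMI were on in at least 1 cell. Of the 9 genes, 5 were, and nothing is read from that because on-level cells helped to choose them.

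**Figure D1:**
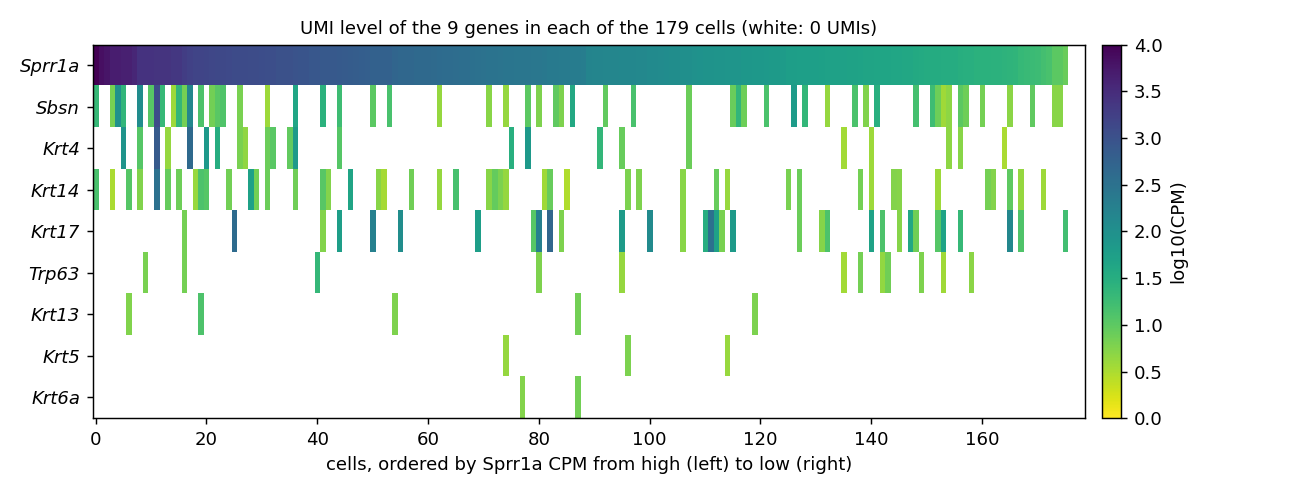
Each column is 1 cell, ordered by Sprr1a level, and each row is 1 of the 9 genes; the colour is log10 of CPM and white is 0 UMIs. Sprr1a fills the row except for 3 cells, Krt17 is on in 7 cells, and Trp63, Krt13, Krt5 and Krt6a show only scattered cells with 1 UMI, or 2 for Krt13 in Acinar68.

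Sprr1a encodes a small proline-rich cross-bridging protein of the cornified envelope. It had 19265 UMIs, or 692 CPM (683 to 702), and lay on chromosome 3 of GRCm38 from 92483952 to 92485895 on the minus strand. A UMI was seen in 98.3% of cells (95.2 to 99.7%), and in 91.3% (85.8 to 95.2%) of thinned cells. The lowest cells were at 0 CPM, the median cell at 156.9 CPM and the highest, Acinar155, at 9747 CPM. Of the 3 cells without a UMI, 2 were shallow, with 7699 and 22806 UMIs, and Acinar181 had 168843 UMIs. The distribution was skewed: 11 cells held 50% of Sprr1a UMIs, 36 cells were at 1000 CPM or more, and 42 were under 50 CPM. A low level was also present in the 6 fibroblast-rich cells. All 6 fibroblast-rich cells had a Sprr1a UMI, at 19.4 to 151.4 CPM with a median of 43.7 CPM, against 156.9 CPM over the other cells of at least 40000 UMIs. The highest of the 6 was Acinar188, and the next was at 109.6 CPM. The share of cells with a UMI therefore does not separate expression from a common low background, whereas levels above 151.4 CPM lay beyond anything in those 6 cells. Sprr1a was on in 58.7% of cells, which includes 2 of the 6 fibroblast-rich cells.

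Windows upstream of gene starts are shown for Sprr1a and Sbsn, which were on together in 3 cells, and for Ivl (involucrin), which is another cornified-envelope gene and had a rank correlation of 0.40 with Sprr1a. Each runs 5′ to 3′ on the strand of the gene from 250 bases before to 10 bases after the RefSeq start in GRCm38.p6. Sprr1a is at chr3:92485872-92486131 on the minus strand, Sbsn at chr7:30751221-30751480 on the plus strand and Ivl at chr3:92573726-92573985 on the minus strand. Capitals mark the letters TGANTCA, the usual motif of AP-1 (Fos and Jun proteins), and TATAAA, the TATA box.
Sprr1a: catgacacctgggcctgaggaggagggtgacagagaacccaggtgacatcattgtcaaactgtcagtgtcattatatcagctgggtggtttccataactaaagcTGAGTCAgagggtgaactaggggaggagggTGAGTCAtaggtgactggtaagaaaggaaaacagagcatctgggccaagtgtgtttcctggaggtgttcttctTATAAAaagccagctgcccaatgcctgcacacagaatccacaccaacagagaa
Sbsn: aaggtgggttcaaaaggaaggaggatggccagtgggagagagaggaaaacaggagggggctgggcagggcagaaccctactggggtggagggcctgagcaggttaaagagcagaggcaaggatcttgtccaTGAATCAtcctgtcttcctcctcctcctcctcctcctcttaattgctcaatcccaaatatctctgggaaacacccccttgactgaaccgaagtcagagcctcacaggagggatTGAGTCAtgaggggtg
Ivl: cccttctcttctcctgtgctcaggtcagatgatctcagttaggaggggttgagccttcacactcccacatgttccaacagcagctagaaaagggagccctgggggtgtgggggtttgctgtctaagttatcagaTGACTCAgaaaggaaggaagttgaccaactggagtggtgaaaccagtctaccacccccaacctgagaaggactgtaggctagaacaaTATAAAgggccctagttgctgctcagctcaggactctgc
TGANTCA reads the same on both strands. Its matches lay at chr3:92486021-92486027 and chr3:92485991-92485997 for Sprr1a, at chr7:30751352-30751358 and chr7:30751465-30751471 for Sbsn, where the second began 6 bases before the start, and at chr3:92573845-92573851 for Ivl. TATAAA began 43 bases before the Sprr1a start and 29 bases before the Ivl start, with none in the Sbsn window. The full windows of the table also hold 50 bases after each start. Among 32851 such RefSeq windows searched on both strands, 7.81% held TGANTCA at least once, 0.46% held it at least 2 times, and 13.6% held TATAAA. The Krt5 window held neither, nor did the windows of Sprr2a1, Sprr2a2 and Sprr2a3, which were abundant. Krt8 had the highest rank correlation with Sprr1a, at 0.66, and its window held no TGANTCA and 2 matches to TATAAA. Krt13, which was nearly undetected, had 2 windows. Its window at the gene start held 1 match to TGANTCA, and the other, inside the gene, held 2. Windows were found for 5 of the 9 genes by symbol. The windows of Krt14 and Sprr2a2 also lay inside the gene as placed by Gencode. A match is a description of letters and not a binding site. In a list of 9 AP-1 subunit genes added after the motif was seen, 8 could be compared. Their median rank correlation with Sprr1a was -0.04, and the highest was 0.23 for Fosl1. RNA of the subunits does not measure AP-1 activity, and a role of AP-1 was not tested.

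Of the 5 genes that followed Sprr1a most closely across cells, the top 2 were Krt8 and Krt19, keratins of simple epithelium. Over the cells with at least 40000 UMIs, Spearman's rho with Sprr1a was 0.66 for Krt8, 0.62 for Krt19, 0.62 for Wincr1, 0.61 for Capn5 and 0.60 for Ezr, which encodes the apical membrane linker ezrin. Krt18, the partner of Krt8, was at 0.51, Krt20 at 0.50 and Krt7 at 0.42. The lowest were Nfix at -0.53, Cp at -0.53 and Gpx2 at -0.50. For scale, 2.73% of 13393 other genes had a rho of at least 0.3 with Sprr1a and 3.26% had a rho of at most -0.3, with a median of -0.05. The cells form 1 group, with no animal or culture named, and differ in depth. Sprr1a itself had a rho of -0.07 with total UMIs and -0.15 with the number of genes. With each cell thinned to 40000 UMIs, rho was 0.66 for Krt8, 0.60 for Krt19, 0.54 for Wincr1, 0.52 for Capn5 and 0.53 for Ezr. It was -0.36 for Nfix, -0.50 for Cp and -0.44 for Gpx2. Sprr1a also had a rho of 0.08 with the mitochondrial share of UMIs and -0.06 with reads per UMI. Any other part of cell quality in these correlations was not tested. In the 16 cells with at least 2000 CPM of Sprr1a, Krt8 was between 5503 and 13538 CPM, against a median of 5313 CPM over all cells. Krt19 was between 1474 and 5376 CPM (all-cell median 1482 CPM), Krt18 between 858 and 6343 CPM (2727 CPM) and Krt7 between 251 and 12307 CPM (3315 CPM), so single cells rich in Sprr1a were low in Krt18 or Krt7. In the same 16 cells Cp, the gene of ceruloplasmin, was between 0 and 145.9 CPM, against a median of 309 CPM over all cells. Krt17 had no UMI in any of the 16, but only 18.4% of all cells had one. The 2 genes were on together in 5 other cells, so this is not read as exclusion.

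**Figure D2:**
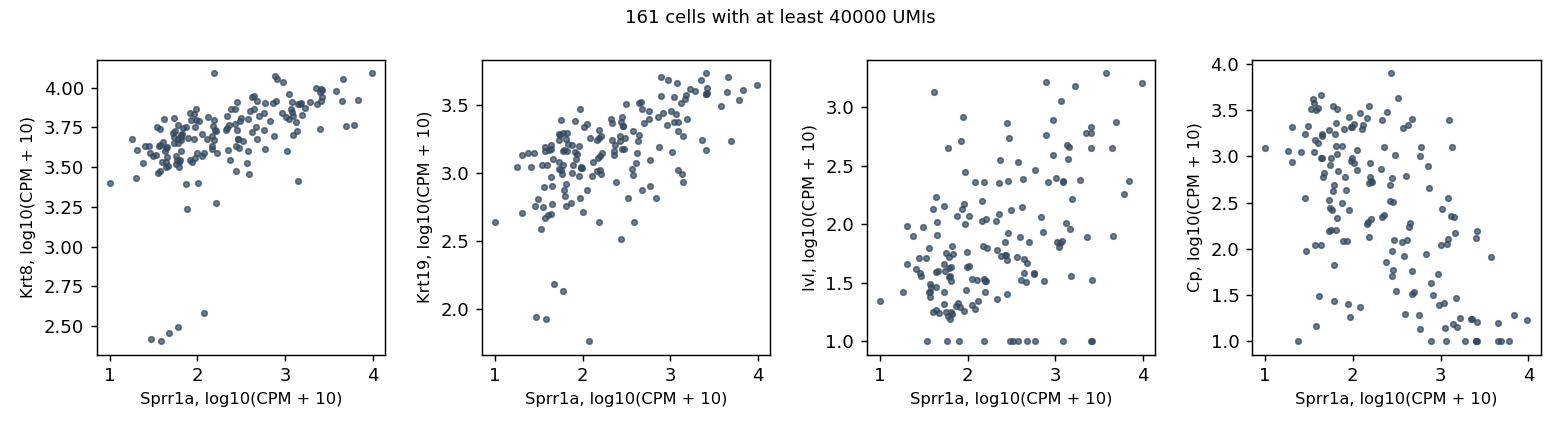
Each point is 1 cell with at least 40000 UMIs; both axes are log10 of CPM plus 10, with Sprr1a on the horizontal axis and Krt8, Krt19, Ivl or Cp on the vertical axis. Krt8 and Krt19 are higher in cells with more Sprr1a (rho 0.66 and 0.62), Ivl is scattered (0.40), and Cp is low in all cells at the right (-0.53); the few points with very low Krt8 and Krt19 include the fibroblast-rich cells.

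Among other listed genes of stratified epithelia, more adhesion genes of the basal side than cornified-envelope genes reached a rho of 0.3 with Sprr1a. In a list of 16 basal-layer genes, 10 were abundant enough to compare and 7 of these had a rho of at least 0.3 with Sprr1a, with a list median of 0.36, where 2.73% of all genes did. They included the hemidesmosome integrin genes Itgb4 at 0.48 and Itga6 at 0.39 and the serpin gene Serpinb5 at 0.47. Of 8 desmosome genes 5 reached 0.3 (2.73% of all genes), among them Dsg2 at 0.52 and Dsp, the gene of desmoplakin, at 0.43. Of 12 cornified-envelope genes compared, 3 reached 0.3, against the same 2.73%: Ivl at 0.40, Sfn at 0.36 and Cstb at 0.31. Ly6d, a marker of squamous cells, was at 0.13 and Sprr2a1, of the same small proline-rich family, at -0.01. None of 10 G2 and M phase genes was at 0.3 or more, 3 were at -0.3 or less (3.26% of all genes), and their median was -0.28. Over the 16 cells with the most Sprr1a, the proliferation marker Mki67 ranged from 0 to 257 CPM, against a median of 67.5 CPM over all cells. The difference between these lists was not tested.

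The 5 cells with the highest Sprr1a had partly overlapping companion genes. Acinar155, the highest at 9747 CPM, also had 9155 CPM of Prl2c2 and 1860.2 CPM of Prl2c3, both of the prolactin family, where the medians of the other cells were 11.6 and 0 CPM. It also had 9670.3 CPM of the enzyme gene Ctrb1. Acinar22, at 6803 CPM of Sprr1a, had 27465 CPM of Gkn1 and 3426 CPM of Muc5ac, genes of gastric surface cells. Acinar55, at 6002 CPM, had 24897 CPM of Sprr2a1, 10579 CPM of Muc5ac, 19788 CPM of Ctrb1 and 974 CPM of Prl2c3. Acinar22 and Acinar55 also shared high Psca, Sprr2a2 and Pnliprp2, and both had high Tff1, as did Acinar116 at 6154 CPM. Acinar57, at 4868 CPM, had 396 CPM of S100a7a. Acinar116, at 4828 CPM, rested on only 10563 UMIs and had 5586 CPM of Tff3. In that cell 1 UMI stands for 94.7 CPM, so its levels are coarse. These 5 cells were the highest 5 and were named for that reason alone.

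Sbsn, Krt4 and Krt14 reached the on level in 3 cells in all. Sbsn, on chromosome 7 from 30751471 to 30756134, had 461 UMIs in 56 cells (31.3%, 24.6 to 38.6%; 14.3% of thinned cells) and 16.6 CPM. Krt4, on chromosome 15 from 101918535 to 101924735, had 373 UMIs in 24 cells (13.4%, 8.78 to 19.3%; 6.83% of thinned cells) and 13.4 CPM. Krt14, on chromosome 11 from 100203162 to 100207548, had UMIs in 47 cells (26.3%, 19.97 to 33.3%; 8.70% of thinned cells) and 4.92 CPM, and 38 of the 47 cells had a single UMI. The median cell had 0 CPM of each. Among the 6 fibroblast-rich cells, Acinar188 had 4 Krt4 UMIs at 22.4 CPM, Acinar182 had 2 Sbsn UMIs at 14.95 CPM and none had a Krt14 UMI. Levels of Krt4 and Sbsn up to these are thus within what those cells showed.

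Acinar65 stood apart as the cell with all 3. It had 297 Sbsn UMIs, or 1168 CPM (1039 to 1309), Krt4 at 727 CPM (626 to 840), and Krt14 at 326 CPM from 83 UMIs (260.0 to 405). Its Sprr1a level was 2525 CPM. This 1 cell held 64.4% of all Sbsn UMIs, 60.6% of all Krt14 UMIs and 49.6% of all Krt4 UMIs. Among 13108 genes with at least 100 UMIs, 1.16% had 50% or more of their UMIs in 1 cell. Acinar65 also had 425 CPM of Lor, the gene of the late envelope protein loricrin, which was 57.1% of all Lor UMIs. It carried no Krt17 UMI, and none of its UMIs were from Krt5, Krt6a, Krt13 or Trp63. Without it, pooled levels were 5.95 CPM for Sbsn, 6.82 CPM for Krt4 and 1.96 CPM for Krt14.

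Acinar65 kept a simple-epithelial keratin profile, with 11589 CPM of Krt7, 9807 CPM of Krt8 and 5376 CPM of Krt19. The companion genes that stood out most there by ratio to the median of the other cells were 1700030N03Rik at 6205 CPM, Ptprn2 at 1050.0 CPM, Ccnd2 (cyclin D2) at 2045 CPM, Knl1 at 1152 CPM, Prl2c3 at 672 CPM and Tff3, a secreted trefoil peptide gene, at 5706 CPM. The 9 fibroblast genes and the pan-leukocyte gene Ptprc were at 0 in this cell, as were the 5 myoepithelial genes. It was the cell ranked 20 by total UMIs, with 254298, and ranked 52 by genes with a UMI, with 12438. Whether more than 1 cell was in the well was not tested.

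Acinar89 was on for Krt4 at 437 CPM (359 to 527) and for Sbsn at 139.03 CPM (96.8 to 193), with Sprr1a at 1672 CPM and no Krt14 UMI. Acinar67 was on for Sbsn at 115.3 CPM (from 20 UMIs), with Sprr1a at 2616 CPM and Krt4 at 11.5 CPM. All 3 cells had high Tff3, at 4528 CPM in Acinar89 and 10575 CPM in Acinar67, against a median of 75.4 CPM over all cells. High Tff3 was not particular to them. It reached 19379 CPM in another cell, and Acinar116, with neither Krt4 nor Sbsn on, had 5586 CPM. Ccnd2 was at 2419 CPM in Acinar89 and at 0 in Acinar67. Acinar89 also had 1498 CPM of Ivl and 1029 CPM of Krt20, and Lor was at 0 in Acinar89 and Acinar67. None of the 3 cells had a UMI of Krt17 or Fn1. Only 18.4% of all cells had a Krt17 UMI, so its absence from these 3 cells is not read as exclusion. A Fn1 UMI was seen in 130 cells, and its absence from these 3 was not tested. Just under the threshold, Acinar138 had 84.2 CPM of Krt4 from 11 UMIs, and Acinar19 had 63.7 CPM of Sbsn from 9 UMIs.

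At lower levels the overlap of Krt4 and Sbsn was partial. Krt4 and Sbsn UMIs occurred together in 13 cells. These were 54.2% of the Krt4 cells, where 31.3% of all cells had a Sbsn UMI. They were 23.2% of the Sbsn cells, where 13.4% of all cells had a Krt4 UMI. All 24 Krt4 cells had a Sprr1a UMI, but so did 98.3% of all cells, so nothing is read from that. Spearman's rho over the deeper cells was 0.22 for Krt4 and Sbsn, 0.04 for Krt4 and Krt14 and -0.01 for Krt14 and Sbsn. Pearson's r of log2(CPM + 10) was 0.61, 0.42 and 0.44 for the same pairs. Pearson's r gives more weight to single high cells, and only Acinar65 had at least 5 Krt14 UMIs. The value without Acinar65 was not computed, so these r are not read as a pattern at lower levels. Few genes reached a rho of 0.3 with these sparse genes: 0.134% of other genes for Krt4, 0.0523% for Sbsn and 0.0373% for Krt14. The highest were P2rx3 with Krt4 at 0.36, Qsox1 with Sbsn at 0.37 and Pfn1 with Krt14 at 0.33, and at these counts such values are not read as a shared pattern.

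**Figure D3:**
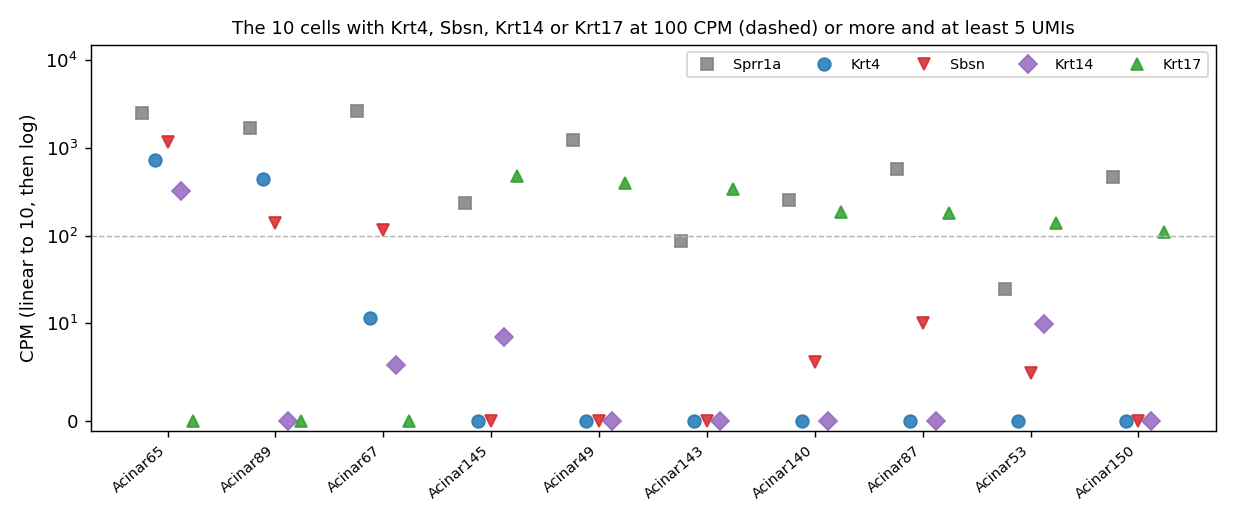
The 10 cells in which Krt4, Sbsn, Krt14 or Krt17 was on are placed along the horizontal axis, with the CPM of 5 genes on the vertical axis (linear to 10, then logarithmic; the dashed line is 100 CPM). The 3 cells at the left have Sbsn, with Krt4 or Krt14 in some, and 0 CPM of Krt17, and the 7 cells at the right have Krt17 and at most 10.01 CPM of Sbsn.

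Krt17, the keratin of activated and wounded epithelium and of skin appendages, was on in 7 other cells. It had 401 UMIs in 33 cells (18.4%, 13.04 to 24.9%; 12.4% of thinned cells), or 14.4 CPM (13.04 to 15.9), from the interval of chromosome 11 between 100256217 and 100261029. Those levels were 483 CPM in Acinar145, 395 CPM in Acinar49, 338 CPM in Acinar143, 185.9 CPM in Acinar140, 180.2 CPM in Acinar87, 138.9 CPM in Acinar53 and 109.3 CPM in Acinar150. The median cell was at 0 CPM, and 1 of the 6 fibroblast-rich cells had a single UMI at 7.48 CPM. The next cell with at least 5 UMIs was Acinar156 at 65.3 CPM, while Acinar118 reached 123.2 CPM from 1 UMI of 8117. None of the 7 was on for Krt4, Sbsn or Krt14, but with so few cells on for either set a shared cell would be rare in any case. At the level of single UMIs the sets overlapped: of the 33 cells with Krt17, 39.4% had a Sbsn UMI and 30.3% a Krt14 UMI, against 31.3% and 26.3% of all cells. Sprr1a in the 7 cells ranged from 24.8 CPM in Acinar53 to 1224 CPM in Acinar49, with 5 of the 7 on for Sprr1a.

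The gene that most often stood out in the 7 Krt17 cells was 2610307P16Rik. It was at 198 to 860.2 CPM in all 7 and at a median of 3.92 CPM over all cells. Fn1, the gene of the matrix protein fibronectin, was at 1276 CPM in Acinar145, 1449 CPM in Acinar49, 1524 CPM in Acinar143, 564 CPM in Acinar140, 1582 CPM in Acinar87, 352 CPM in Acinar53 and 661 CPM in Acinar150, and its median over all cells was 30.3 CPM. Fn1 is also a fibroblast gene. The other 9 fibroblast genes together were at 0 to 11.99 CPM in these 7 cells, Ptprc was at 0 in all 7, and Krt8 was between 4721 and 8030.5 CPM. By the same ratio 2610307P16Rik stood out in 12.8% and Fn1 in 13.95% of the other cells. Camk2b and Ctla2a stood out in 5 of the 7 cells and in 30.8% and 8.72% of the others. Inhba (a subunit of activin), Socs2 and Wnt7a stood out in 4 of the 7 and in 9.88%, 5.23% and 3.49% of the others. Acinar145 and Acinar53 also had Wfdc18 at 1647 and 461 CPM. Cp was at 480 to 4203 CPM, above its all-cell median of 309 CPM in each of the 7 cells, and each of the 16 cells rich in Sprr1a was below that median. These companions were found in the same cells that define the group, and they are given without a test.

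**Figure D4:**
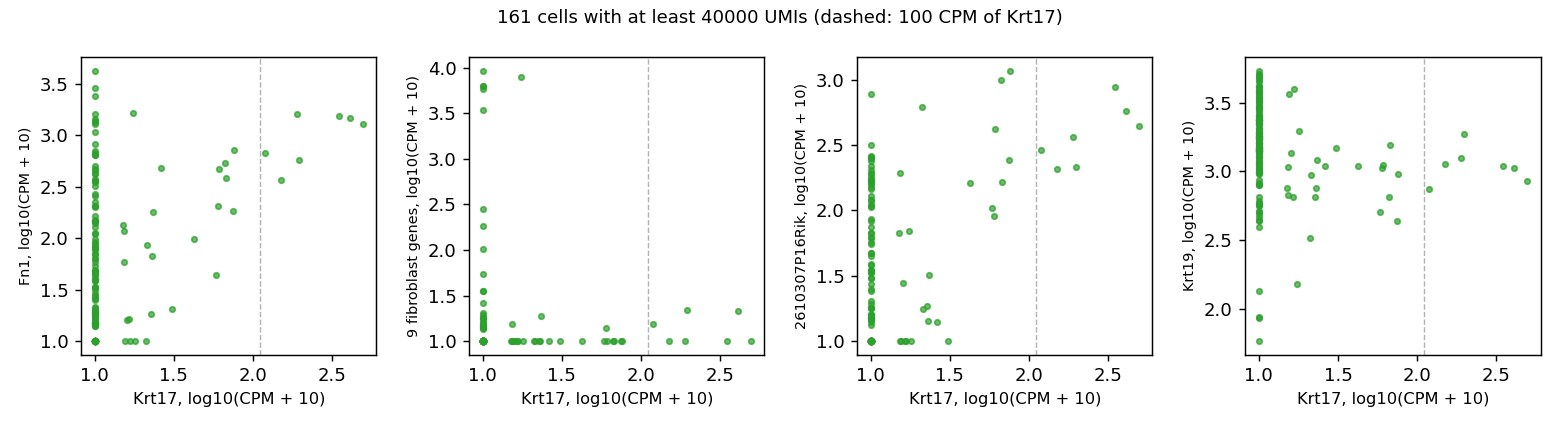
Each point is 1 cell with at least 40000 UMIs, with log10 of CPM plus 10 on both axes; Krt17 is on the horizontal axis and the dashed line marks 100 CPM. Cells right of the line have Fn1 at 352 CPM or more and 2610307P16Rik at 198 CPM or more, the 9 other fibroblast genes near 0, and Krt19 between 734 and 1853 CPM.

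Over all the deeper cells, the genes with the highest rho to Krt17 included Rela at 0.43, Kdm5a at 0.42 and Klhl24 at 0.42, and the lowest were Phgr1 at -0.43 and Tnni2 at -0.41. Of other genes, 2.16% had a rho of at least 0.3 with Krt17 and 0.261% of at most -0.3. For the simple keratins, rho with Krt17 was -0.32 for Krt19 and -0.28 for Krt7 and -0.04 for Krt8. Of 12 genes of simple duct epithelium, 5 had a rho of at least 0.3 with Krt17, among them Sox9, a duct and progenitor transcription factor, at 0.38, Epcam at 0.34, Cldn4 at 0.31 and Spp1 at 0.30. For Krt17 and Sprr1a themselves rho was -0.14. None of the 10 basal-layer, 12 cornified-envelope and 8 desmosome genes compared reached 0.3 with Krt17. In lists this short, none is near the 2.16% of all genes, so nothing is read from it. Only 33 cells had a Krt17 UMI, so these are weak descriptions.

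The remaining 4 genes, among them the basal regulator Trp63 and the basal keratin Krt5, were nearly undetected. Trp63, on chromosome 16 from 25683763 to 25892102, had 12 UMIs in 12 cells, or 0.431 CPM (0.223 to 0.753). Krt13, the usual partner of Krt4, had 6 UMIs in 5 cells, or 0.216 CPM, and no UMI in Acinar65 or Acinar89. Krt5, the partner of Krt14, had 3 UMIs in 3 cells, or 0.108 CPM. Each of the 3 cells also had 1 Krt14 UMI, where 26.3% of all cells had at least 1. Krt6a had 2 UMIs in 2 cells, or 0.0719 CPM. The 4 genes together had 23 UMIs in 21 cells and were on in none. After thinning to 40000 UMIs, Krt5 and Krt6a were not seen in any cell, and such a 0 is compatible with up to 1.86% of cells having a UMI at that depth. Thinned to 20000 UMIs, which keeps more cells, Krt5 was seen in 0.592% of cells and Krt6a in none. Of the 12 Trp63 cells, 5 also had a Krt17 UMI, where 18.4% of all cells did. With so few UMIs these overlaps are not read as a shared pattern. None of the 6 fibroblast-rich cells had a UMI of these 4 genes. The pair of basal keratins was therefore not seen at the on level in any cell, and Krt14 in Acinar65 and Krt4 in Acinar65 and Acinar89 were detected without their usual partners.

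Compared per transcript length on the read counts, Sprr1a was again far above the rest, at 962 reads per kilobase and 1000000 reads (RPKM) over the longest annotated transcript. Krt17 was at 8.39 RPKM, Sbsn at 6.995, Krt4 at 6.95 and Krt14 at 2.28. Krt13 was at 0.112 RPKM, Trp63 at 0.0636, Krt6a at 0.0392 and Krt5 at 0.0353. Krt17, Sbsn and Krt4 were close, and their order rests on the few cells named above. It also depends on the scaling: by UMIs, without scaling, Sbsn was at 16.6 CPM and Krt17 at 14.4 CPM, with Sprr1a at 692 CPM. Whether the counted reads cover whole transcripts is not stated, so scaling by length may not suit them. Some keratins share sequence. Of the 31-base words of the longest Krt6a transcript 46.2% also occur in Krt6b, and of those of Krt14 18.2% occur in Krt16 and 10.8% in Krt17, so reads between these genes could have been split or dropped. Krt17 had no UMI in Acinar65, where Krt14 was highest.

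Set among all keratins, the 6 keratin genes were a small fraction. Of 37 keratin genes with an entry, 31 had a UMI. Krt7, Krt8, Krt18 and Krt19 held 98.03% of all keratin UMIs, and the 6 keratins described here held 0.243%. Krt8 was at 5349.9 CPM, Krt7 at 3524 CPM, Krt18 at 2704 CPM and Krt19 at 1769 CPM. Krt20 followed at 84.3 CPM and Krt23 at 70.6 CPM, and Krt10, the suprabasal keratin of epidermis, was at 14.7 CPM, close to Krt17 and Krt4. These are UMI levels, which count molecules and are not scaled by transcript length.

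Other squamous genes were uneven in the same way. Of 45 cornified-envelope genes listed, 35 had an entry and together held 2933 CPM. Most of this was from Sprr2a1 at 744 CPM, Ly6d at 637 CPM, Sprr2a2 at 467 CPM and Cstb at 351 CPM, and counts for the Sprr2a copies are uncertain because 93.3% of the 31-base words of Sprr2a1 occur in Sprr2a2. Acinar55 alone held 36.8% of Sprr2a2 and 23.97% of Sprr2a1 UMIs, and without it Sprr2a2 was at 297 CPM and Sprr2a1 at 569.7 CPM. Ivl was at 174.05 CPM. The late envelope genes were low: Lor was at 6.79 CPM in 34 cells, Flg had 14 UMIs, Tgm1 had 12 and Sprr1b had 2. Of the basal-layer list, Lamb3 at 214 CPM and Itgb4 at 211 CPM were present, whereas Col17a1 had 9 UMIs and Dsc3 had 1. Among factors that act in squamous epithelium, Ehf was at 308 CPM and Klf4 at 216 CPM, while Trp73 had 14 UMIs and Grhl3 had 19.

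Cells were numbered in their titles, and the labels do not say whether the numbers mark plates. Over blocks of 24 title numbers, pooled Sprr1a ranged from 250 to 1230 CPM and the block medians from 120 to 593 CPM. Krt4 was at 19.7 CPM over numbers up to 96 and 4.64 CPM over numbers from 97, and Sbsn at 25.7 and 3.78 CPM. Acinar65, Acinar89 and Acinar67 were all among the former.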

How the data were processed

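RNA of 179 single cells was analysed, each a sample in 1 group; methylation and accessibility data were not used. Tables were deposited by the authors, with whole-number UMI counts and read counts per gene and cell, not normalized. STAR, featureCounts, GRCm38 and mm10 are named without versions, per the submitters' processing notes, and the rule by which UMIs were collapsed is not stated in those notes. All cells had at least 1000 UMIs and were kept. Doublets were not called, since per the labels every sample holds 1 cell. CPM is UMIs of a gene per 1000000 UMIs of the cell or of all cells pooled. Intervals are exact Poisson or exact binomial (Clopper-Pearson) at 95%, and the limit set by a 0 is 3 counts. Spearman's rho was taken over 161 cells and 13394 genes averaging 0.5 UMI or more, and was computed for the 5 genes with at least 100 UMIs in at least 20 cells. Companion genes had at least 20 UMIs in a cell and the highest ratio of CPM plus 10 to the median of the other cells plus 10; a gene stood out at a ratio of at least 10. The text names the 5 genes with the highest and lowest rho, companions of the cells where a gene was on and of the 5 cells with the highest summed level, and listed genes at the top or bottom of their lists; a few genes that this rule gives are not reported here. The 9 genes and the lists were chosen with earlier results of these data known. The rho script was tested on simulated data. Computations ran in Python 3.11.15 (scipy 1.17.1, numpy 2.4.6, matplotlib 3.10.9, pandas 2.3.3). Positions come from Gencode on GRCm38 and upstream windows from RefSeq on GRCm38.p6.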

Additional observations from a re-analysis of the deposited data

How the results depend on the processing

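No paired analysis was possible because all cells form 1 group. The pooled level of the 9 genes, 742 CPM, was 825 CPM with read counts in place of UMIs, 715 CPM with equal weight per cell, 696 CPM without the cell with the highest summed level and 769 CPM without the 6 fibroblast-rich cells, an alternative chosen after seeing the data. The share of cells with at least 1 gene on, 59.8%, was 75.4% at 50 CPM and 49.7% at 200 CPM. The share with at least 3 genes on, 1.12%, was 0% among title numbers from 97. Spearman's rho with Sprr1a was 0.51 to 0.67 for Krt8 and 0.59 to 0.65 for Krt19 over the alternatives. Between sparse genes, the sign of Spearman's rho changed under some alternatives for Krt14 with Krt4 or Sbsn and for pairs with Krt17, but not for Krt4 with Sbsn (0.19 to 0.28). Krt17 was at 7.43 CPM without the 14 cells that the fibroblast list with Fn1 picks, 4 of which were on for Krt17. With 23 UMIs in all, depth limits every statement on Krt5, Krt6a, Krt13 and Trp63. The cause of these shifts was not tested.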

Other observations

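Krt16, the usual partner of Krt6 in wounded epithelium, had 57 UMIs in 5 cells, and 42 of them were in Acinar84 (181.7 CPM). That cell also had 64.9 CPM of Krt17 and 1 of the 12 Trp63 UMIs, and because Krt16 shares sequence with Krt14 and Krt17 its counts are uncertain. Msln, which encodes mesothelin and stands in a list of mesothelial genes, was at 555 CPM and had a rho of 0.55 with Sprr1a, while the other mesothelial genes were nearly undetected (Wt1 at 0.61 CPM in 3 cells, Upk3b at 0.11 CPM in 3 cells).

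Wound and growth-factor genes were abundant in these cells, with Il1rn at 547 CPM, Ly6a at 520 CPM, Plaur at 508 CPM and Anxa1 at 500 CPM. Of 14 such genes compared, 3 had a rho of at least 0.3 with Sprr1a, among them Areg, the gene of amphiregulin, at 0.50, and 1 had a rho of at most -0.3, where 2.73% and 3.26% of all genes did. Of 9 genes known as targets of YAP, none reached 0.3 with Sprr1a, where 2.73% of all genes did, and their median was -0.07. In a list of 9, none is near that share.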
